A study of Mus musculus with 3 samples.

Results

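Accessible chromatin at Sox1, Sox3, Sox14 and Sox21, the SoxB genes other than Sox2, was described in 3 lists of ATAC-seq peaks. Peaks were assigned to a gene by position alone, where they overlapped the gene body or the 50 kb on either side of it in the GENCODE M21 annotation of mm10. The SOX2-ON list gave 30 of its 129843 peaks, the SOX2-OFF list 27 of 131520 and the CEpiLC list 19 of 130348. Overlapping peaks of the 3 lists merged into 37 of 219488 regions: 23 at Sox1, 3 at Sox3, 4 at Sox14 and 7 at Sox21.

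ATAC-seq, in which a transposase cuts accessible DNA, had been performed on 50000 cells per sample from HM1 (129) mouse embryonic stem cells differentiated for 72 h. The medium held bFGF (10 ng/ml) and LGK974 (5 µM), which blocks WNT secretion, and after 2 days CHIR99021, a GSK3 inhibitor that activates WNT signalling, was added in all 3 groups. CEpiLC, caudal epiblast-like cells, were wild-type. SOX2-ON and SOX2-OFF cells both carried the Sox2-/- genotype of the SOX2 TetON line, with doxycycline maintained during differentiation in SOX2-ON and withdrawn in SOX2-OFF. According to the methods of the study, this line was picked as a clone from XY cells, with the endogenous Sox2 ablated, a doxycycline-responsive Sox2 cDNA at Hprt on the X chromosome and the rtTA activator at Rosa26, and doxycycline was used at 1 µg/ml. Each group had 1 sample. No test between groups was therefore possible, and a difference between either TetON sample and CEpiLC cannot be told apart from a difference between the cell lines.

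SoxB proteins are transcription factors that bind DNA through an HMG box and recognise short motifs such as ACAATG and ACAAAG. Sox1 and Sox3 belong with Sox2 to the SoxB1 subgroup, largely redundant activators that keep neural progenitors undifferentiated, with Sox3 already active in the epiblast and Sox1 a marker of the early neural plate. Sox14 and Sox21 form the SoxB2 subgroup, which acts mainly in repression, with Sox14 expressed in subsets of interneurons and Sox21 counteracting SoxB1 factors during neurogenesis.

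All 4 genes had an accessible start in every list, so the 200 bp directly upstream of each start are shown, from the GRCm38 genome of RefSeq, the same build as mm10, in the direction of the gene and with CpG dinucleotides in capitals.
Sox1 (chr8:12395095-12395294, plus strand): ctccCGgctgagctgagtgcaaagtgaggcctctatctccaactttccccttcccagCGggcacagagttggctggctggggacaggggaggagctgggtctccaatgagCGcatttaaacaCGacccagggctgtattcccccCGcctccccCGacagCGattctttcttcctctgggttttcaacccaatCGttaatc
Sox3 (chrX:60893431-60893630, minus strand): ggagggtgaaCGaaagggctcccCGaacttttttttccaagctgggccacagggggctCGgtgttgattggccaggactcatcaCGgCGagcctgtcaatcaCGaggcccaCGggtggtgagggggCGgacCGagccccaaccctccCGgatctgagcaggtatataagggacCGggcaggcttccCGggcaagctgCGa
Sox14 (chr9:99876171-99876370, minus strand): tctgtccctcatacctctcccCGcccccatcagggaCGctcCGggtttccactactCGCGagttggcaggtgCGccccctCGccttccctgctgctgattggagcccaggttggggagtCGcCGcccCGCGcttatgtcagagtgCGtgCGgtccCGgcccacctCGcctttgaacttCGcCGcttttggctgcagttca
Sox21 (chr14:118237031-118237230, minus strand): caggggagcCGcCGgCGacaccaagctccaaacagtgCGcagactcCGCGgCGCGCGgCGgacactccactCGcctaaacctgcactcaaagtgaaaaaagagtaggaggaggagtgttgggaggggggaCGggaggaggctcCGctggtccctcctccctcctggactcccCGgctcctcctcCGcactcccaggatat
GC content of these stretches was 58% for Sox1, 63.5% for Sox3, 65.5% for Sox14 and 65.5% for Sox21, against a median of 55% over 21933 promoters of coding genes. The observed-over-expected CpG ratio was 0.483 for Sox1, below the coding median of 0.505, and 0.654, 0.818 and 0.7 for Sox3, Sox14 and Sox21, above it. None of the 4 stretches held the SOX letters ACAATG or ACAAAG on either strand, which 18.4% of coding promoters did. The OCT letters ATGCNAAT were likewise missing from all 4 stretches and present in 2.12% of coding promoters. None of the stretches held the letters searched for TCF/LEF, spelled ATCAAAG (2.26% of coding promoters), or for T-box factors such as T, spelled TCACACC (2.5%). Nor did any hold those for CDX/HOX factors, TTTATNG (7.15% of coding promoters), for GATA factors, AGATAA (6.84%), or for FOXH1, AATCCACA (0.533%). A match or its absence describes these letters in this window and says nothing of binding.

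Away from the starts, 5 stretches of 200 bp are shown because the lists differed there or because SOX letters were dense. All 5 hold SOX letters. Other regions where the lists differed are not shown, some without SOX letters in the peak centre, such as that 15.3 kb downstream of Sox21. Capitals mark SOX letters on either strand, and in the Sox14 stretch also OCT letters. The stretch 6.0 kb downstream of Sox21 was chosen after its values were seen. It is the 200 bp with the most SOX and OCT letters in the SOX2-ON peak, whose centre held neither. The others are the centres of the peaks named.
Sox21, 16.6 kb upstream, SOX2-ON peak (chr14:118253489-118253688, minus strand): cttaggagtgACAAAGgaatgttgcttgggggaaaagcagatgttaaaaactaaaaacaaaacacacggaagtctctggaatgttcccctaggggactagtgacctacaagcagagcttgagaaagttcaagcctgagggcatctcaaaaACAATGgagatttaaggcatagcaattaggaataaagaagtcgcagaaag
Sox21, 6.0 kb downstream, SOX2-ON peak (chr14:118230526-118230725, minus strand): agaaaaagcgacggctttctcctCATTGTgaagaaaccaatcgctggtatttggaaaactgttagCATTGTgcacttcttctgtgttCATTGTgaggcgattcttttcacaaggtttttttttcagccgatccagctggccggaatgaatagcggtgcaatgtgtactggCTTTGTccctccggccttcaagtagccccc
Sox21, 41.9 kb downstream, SOX2-ON peak (chr14:118195077-118195276, minus strand): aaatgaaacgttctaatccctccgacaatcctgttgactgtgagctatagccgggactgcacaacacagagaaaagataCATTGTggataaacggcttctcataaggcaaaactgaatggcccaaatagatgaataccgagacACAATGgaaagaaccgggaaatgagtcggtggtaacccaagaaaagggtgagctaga
Sox3, 18.6 kb upstream, SOX2-ON peak (chrX:60911888-60912087, minus strand): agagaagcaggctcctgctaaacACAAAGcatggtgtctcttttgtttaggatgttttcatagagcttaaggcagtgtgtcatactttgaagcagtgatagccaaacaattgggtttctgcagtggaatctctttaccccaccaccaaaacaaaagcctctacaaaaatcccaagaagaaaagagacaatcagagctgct
Sox14, 5.3 kb downstream, CEpiLC peak (chr9:99870587-99870786, minus strand): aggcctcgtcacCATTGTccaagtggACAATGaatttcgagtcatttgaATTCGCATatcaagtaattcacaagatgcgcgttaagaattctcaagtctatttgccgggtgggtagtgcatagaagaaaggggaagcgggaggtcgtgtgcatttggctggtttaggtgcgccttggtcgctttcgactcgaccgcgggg

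Fold enrichment, the ratio of read pileup to local background averaged over a peak, and −log10 p both depend on the depth of a library, and the peak in place 20000 had a −log10 p of 26.4 (SOX2-ON), 21.2 (SOX2-OFF) and 10.6 (CEpiLC). Peaks were therefore ranked within their own list by −log10 p, with rank 1 the strongest, and the rank as a percentage of the list is called the relative rank. Peaks had a median width of 621 bp (SOX2-ON), 741 bp (SOX2-OFF) and 526 bp (CEpiLC). Chromosome 8, which carries Sox1, held 12.5% of all peaks in SOX2-ON and 12.1% in SOX2-OFF but 4.55% in CEpiLC, and the part of this in the Sox1 results was not tested. Start peaks (within 1 kb of a start) were present in all 3 lists for 5 of 5 epiblast, 6 of 6 caudal epiblast and streak, 5 of 5 neural progenitor and 4 of 5 fibroblast marker genes (without Col3a1). Of 5 genes of unrelated lineages 1, 0 and 1 had one in SOX2-ON, SOX2-OFF and CEpiLC.

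**Figure D1:**
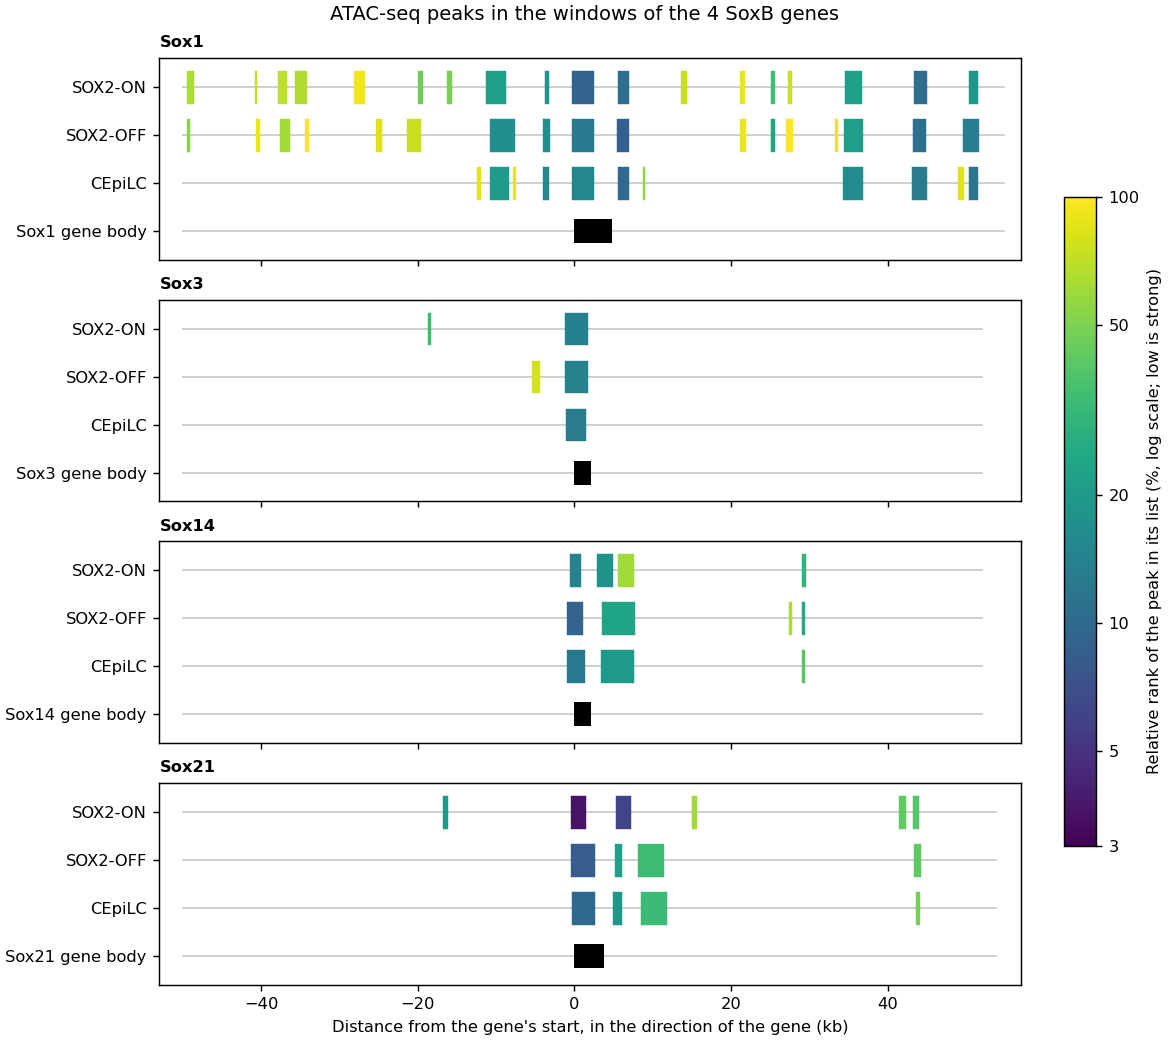
Peaks of the 3 lists in the windows of Sox1, Sox3, Sox14 and Sox21, with distance from the gene's start on the x axis (kb, in the direction of the gene) and colour for the relative rank of each peak (%, log scale, dark is strong). Sox1 had 18, 17 and 11 peaks in SOX2-ON, SOX2-OFF and CEpiLC, while Sox3 had 2, 2 and 1.

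Sox1 had by far the most peaks of the 4 genes, and Sox3 the fewest. The Sox1 window held 18 (SOX2-ON), 17 (SOX2-OFF) and 11 (CEpiLC) peaks. The Sox3 window held 2, 2 and 1 peaks, the Sox14 window 4, 4 and 3, and the Sox21 window 6, 4 and 4, in the same order. Coding genes had a median of 11, 11 and 12 peaks in windows of this kind. Sox1 therefore lay above the coding median in the TetON lists and below it in CEpiLC, with fewer peaks found at 79.1%, 74.3% and 42.8% of coding genes. On chromosome 8 itself the coding medians were 21, 21 and 13, so that the Sox1 window fell below its own chromosome in each list. Sox3 stood at the median of the X chromosome, which was 2, 2 and 1. Sox14 and Sox21 lay below the medians of their chromosomes, which were 10, 11 and 13 on chromosome 9 and 8, 8 and 9 on chromosome 14.

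The bases covered by peaks did not follow the number of peaks. In the Sox21 window 6316 bp were covered by 6 peaks in SOX2-ON, against 7555 bp in SOX2-OFF and 7487 bp in CEpiLC by 4 peaks each. At Sox14 the covered length was 5450, 6626 and 6467 bp, and at Sox3 3130, 3562 and 2419 bp. At Sox1 it was 18579, 20017 and 13215 bp. SOX2-OFF thus had the largest covered length at every member, and CEpiLC the smallest at Sox1 and Sox3. The lists as a whole covered 102 Mb (SOX2-ON), 124 Mb (SOX2-OFF) and 93.7 Mb (CEpiLC), the same order as at Sox1 and Sox3. At Sox14 and Sox21 the smallest length was that of SOX2-ON.

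Regions found in all 3 lists were the largest class, both among all regions (27%) and at the 4 genes. Of the 37 regions, 14 (37.8%) were found in all 3 lists. The exact 95% interval of 22.5 to 55.2 covers counting error only and includes the 27%. A further 8, all in the Sox1 window, were found in SOX2-ON and SOX2-OFF but not in CEpiLC, a class that held 10.5% of all regions and 25.5% of those on chromosome 8. SOX2-ON alone held 7 regions (18.9%, against 16.9% of all regions), SOX2-OFF alone 4 (10.8% against 15.1%) and CEpiLC alone 3 (8.11% against 20.3%). The remaining region was shared by SOX2-OFF and CEpiLC (2.7% against 6.92%), and 0 were shared by SOX2-ON and CEpiLC, a class with 3.28% of all regions. All 8 regions that held a peak among the strongest 20000 of some list were present in all 3 lists. Presence at these genes differed only among weaker peaks. The like share over all regions was not computed, so this was not read as a trait of the members. The best rank was 25680 among regions in SOX2-ON alone, 83603 among those in SOX2-OFF alone and 72885 among those in CEpiLC alone.

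Losses between lists were read against the share of all regions that went missing in the same comparison. Of 29 regions in SOX2-ON, 7 were missing from SOX2-OFF, where 34.9% of all regions were, and 15 were missing from CEpiLC, where 47.5% were. Of 27 regions in SOX2-OFF, 5 were missing from SOX2-ON (37% of all regions) and 12 from CEpiLC (43%). Of 18 regions in CEpiLC, 4 were missing from SOX2-ON (47.4%) and 3 from SOX2-OFF (41%). Most of the regions missing from CEpiLC lay at Sox1. Without the Sox1 window the count was 4 of 11 regions for SOX2-ON and 2 of 10 for SOX2-OFF, and on chromosome 8 as a whole 71.4% and 70.3% of regions were missing from CEpiLC.

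With all peaks kept and ranked over the whole list, rank differences of 2-fold or more fell on Sox21. Among the 22 regions found in SOX2-ON and SOX2-OFF, 2 had a relative rank at least 2-fold better in SOX2-ON (5.84% of all regions) and 0 in SOX2-OFF (7.05%). Among the 14 regions found in SOX2-ON and CEpiLC, 2 ranked at least 2-fold better in SOX2-ON (9.37%) and 0 in CEpiLC (13%). Among the 15 regions found in SOX2-OFF and CEpiLC, 0 did so in either direction (6.87% better in SOX2-OFF, 6.08% better in CEpiLC). The same 2 regions were called in both comparisons, the start of Sox21 and the region 6.0 kb downstream of its start. Among all members these counts stood close to the background shares, and no excess over all regions was read from them.

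**Figure D2:**
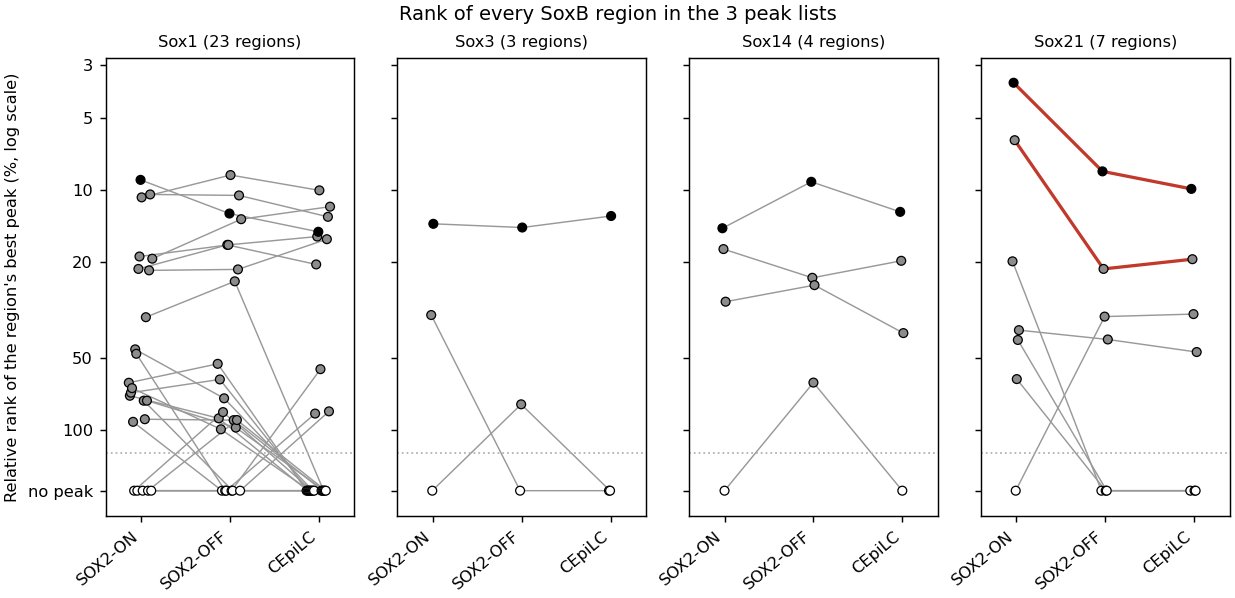
Relative rank of the best peak of every region (%, log scale, strong at the top) in SOX2-ON, SOX2-OFF and CEpiLC, with black points for regions at a gene's start, grey points for other regions and open points where a list had no peak. The 2 red lines are the Sox21 regions whose relative rank was 2-fold or more better in SOX2-ON.

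With ranks over the whole list, Sox21 was the member whose start differed most between lists. With ranks within the chromosome, the Sox21 start ranked 2.98-fold better in SOX2-ON than in CEpiLC and the Sox1 start 3.97-fold better. The Sox1 ratio also carries the larger number of peaks on its chromosome in SOX2-ON. Sox21 lies on the minus strand at chr14:118233232-118237030. Its start peak had rank 4608 (SOX2-ON), 10953 (SOX2-OFF) and 12851 (CEpiLC), which are relative ranks of 3.55%, 8.33% and 9.86%. The relative rank was thus 2.35-fold better in SOX2-ON than in SOX2-OFF, a ratio reached by 1.9% of regions of like rank (the nearest 1000 on either side found in both lists), and 2.78-fold better than in CEpiLC, a ratio reached by 3.61%. SOX2-OFF and CEpiLC stood near each other, at a ratio of 1.18. Fold enrichment was 3.85, 2.44 and 2.36, and −log10 p was 189, 54.6 and 17.7. In SOX2-ON 30.4% of coding start peaks ranked better than that of Sox21, and in SOX2-OFF and CEpiLC 62.5% and 66.3% did.

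The start peak of Sox21 was also narrower in SOX2-ON. It was 1879 bp wide there and reached from 468 bp upstream to 1410 bp downstream of the start. In SOX2-OFF it was 2956 bp wide and in CEpiLC 2877 bp, reaching 2545 and 2571 bp downstream. The upstream edge lay within 305 to 468 bp of the start in every list, so the lists differed mainly at the edge within the gene. The merged region, chr14:118234459-118237498, covers coding sequence and untranslated sequence of Sox21 and an exon of the lincRNA Gm4675, whose own accessibility cannot be told apart from that of Sox21 here. When peaks were ranked by fold enrichment in place of −log10 p, the start of Sox21 no longer passed 2-fold. The ratios were then 1.79 against SOX2-OFF and 1.59 against CEpiLC. What the difference in peak width contributed to either ranking was not tested.

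The region 6.0 kb downstream of the Sox21 start (chr14:118229889-118232111), intergenic, differed more. Its best peak had rank 8016 (SOX2-ON), 27976 (SOX2-OFF) and 25299 (CEpiLC), with fold enrichments of 3.1, 1.8 and 1.9 and −log10 p of 111, 12.9 and 8.1. The relative rank was 3.45-fold better in SOX2-ON than in SOX2-OFF and 3.14-fold better than in CEpiLC, ratios that 4.21% and 4.08% of regions of like rank reached. Under ranking by fold enrichment the ratios were 2.84 and 2.27, still past 2-fold.

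The peak in this region was wider in SOX2-ON and covered other bases. It was 1867 bp wide in SOX2-ON and spanned 5275 to 7141 bp from the start, against 717 bp from 5195 to 5911 bp in SOX2-OFF and 990 bp from 4919 to 5908 bp in CEpiLC. The SOX2-ON peak held 6 matches to the SOX letters, and 0 of these lay within the peak of SOX2-OFF or of CEpiLC. Of the 6 matches, 4 fell in the printed stretch of this peak. Among 5405 SOX2-ON peaks within 10% of this width, 7.53% held 6 or more matches (median 2) and 1.57% held 4 or more in a stretch of 200 bp. These shares describe letters in a sequence that was chosen after it was seen, and binding at these letters was not measured here.

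The remaining regions of Sox21 were weaker. The region 16.6 kb upstream (chr14:118253352-118253826), over an exon of the lincRNA Gm4675, was found in SOX2-ON alone, 475 bp wide, at rank 25680, with a fold enrichment of 2.6 and a −log10 p of 17.6. Of SOX2-ON regions of like rank, 19.9% were missing from SOX2-OFF, 29.9% from CEpiLC and 17% from both. Its central 200 bp held both SOX words, ACAAAG and ACAATG. Regions 41.9 and 15.3 kb downstream were also found in SOX2-ON alone, at ranks 54742 and 79811. The region 9.9 kb downstream was found in SOX2-OFF and CEpiLC but not in SOX2-ON, at ranks 44362 and 42938 and with widths of 3137 and 3123 bp. A region 43.7 kb downstream was found in all 3 lists, at ranks 49828, 55197 and 61801. Of the 7 regions of Sox21, 3 were thus in SOX2-ON alone (42.9%, exact 95% interval 9.9 to 81.6), an interval that includes the 16.9% of all regions in that class.

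**Figure D3:**
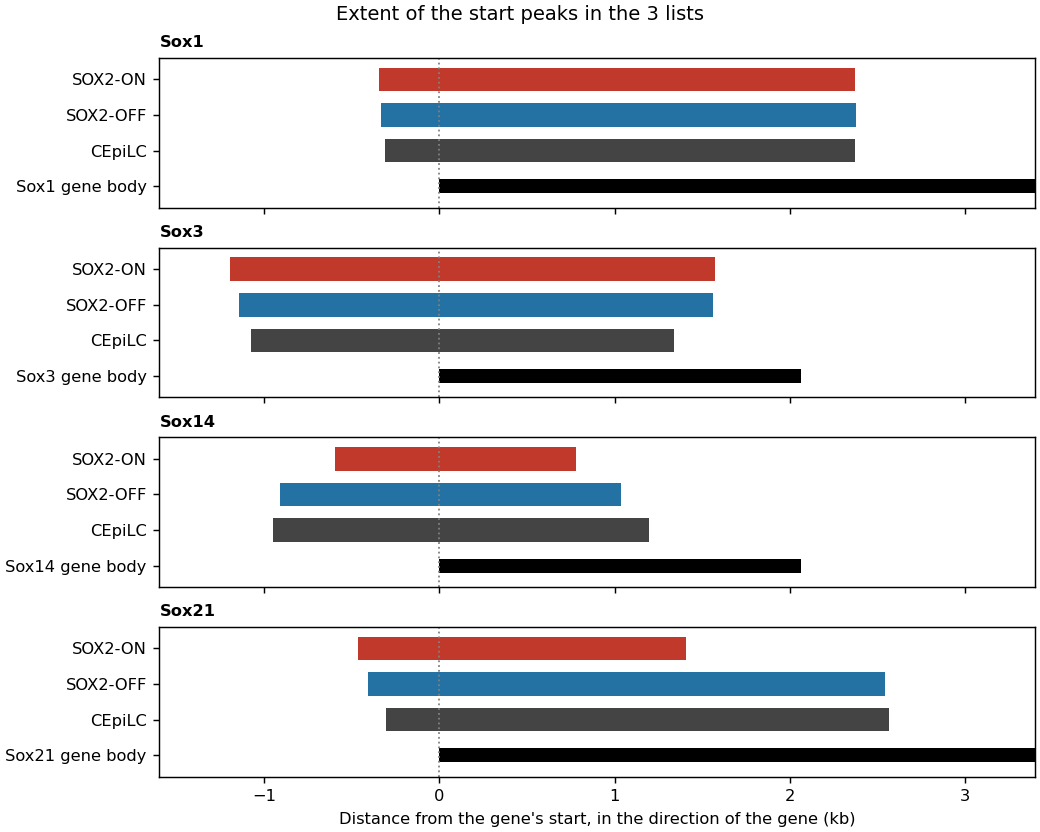
Extent of the start peak of each gene in the 3 lists, with distance from the start on the x axis (kb, in the direction of the gene), coloured bars for the peaks and black bars for the gene body, drawn up to the edge of the panel. The SOX2-ON peak of Sox21 ended 1410 bp downstream of the start, against 2545 and 2571 bp in SOX2-OFF and CEpiLC, while the bars of Sox1 nearly coincide.

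Sox1 had a start peak of nearly the same extent in each list, at ranks that were best in SOX2-ON. It lies on the plus strand at chr8:12395295-12400126. The start peak ranked 11741 (SOX2-ON), 16422 (SOX2-OFF) and 19482 (CEpiLC), or 9.04%, 12.5% and 14.9% of the lists, with fold enrichments of 2.46, 1.94 and 1.93. Widths were 2721, 2714 and 2683 bp. The relative rank was 1.38-fold better in SOX2-ON than in SOX2-OFF, and 22.3% of regions of like rank had a ratio as large, so the shift was an ordinary one for these lists. Against CEpiLC the ratio was 1.65 (20.6% of regions of like rank). The region covers coding and untranslated sequence of Sox1, and the miRNA gene Gm25239 and an intron of the overlapping transcript Sox1ot lie there too.

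Sox1 shared 7 of its 23 regions among all lists, and 6 of these lay away from the start. The region 6.1 kb downstream of the start, in an intron of Sox1ot, ranked 13887 (SOX2-ON), 11353 (SOX2-OFF) and 13044 (CEpiLC). The intergenic region 44.1 kb downstream ranked 13530, 13789 and 16781. The best rank of the window was that of the start in SOX2-ON and that of the region 6.1 kb downstream in SOX2-OFF and CEpiLC. The region 50.6 kb downstream ranked ahead of the start in CEpiLC, at 15297, against 17356 in SOX2-OFF and 25109 in SOX2-ON, a ratio of 1.65 to SOX2-ON that 29.5% of regions of like rank reached. It directly adjoined a weak peak of CEpiLC alone 49.3 kb downstream, rank 109310, which shared no base with it and was counted apart.

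The 8 Sox1 regions found in SOX2-ON and SOX2-OFF but not in CEpiLC were mostly weak. The strongest lay 25.3 kb downstream in an intron of Sox1ot, at ranks 44036 in SOX2-ON and 31520 in SOX2-OFF. Of SOX2-OFF regions of like rank, 12.4% were missing from CEpiLC, and 25.5% of those on chromosome 8. The same shares for its SOX2-ON rank were 39.1% and 42.3%. The others had best ranks from 59948 in SOX2-ON (20.4 kb upstream) down to 117570 (21.5 kb downstream). Ranks within chromosome 8 alone changed the size of the difference from CEpiLC at the Sox1 start, and its direction at some other Sox1 regions. The Sox1 start stood at 4.66%, 6.81% and 18.5% of the peaks of chromosome 8 in SOX2-ON, SOX2-OFF and CEpiLC. On this scale 4 Sox1 regions passed 2-fold in SOX2-ON over CEpiLC and 6 in SOX2-OFF over CEpiLC. With ranks over the whole list the counts were 0 and 0. This scale divides by the peaks of chromosome 8, which numbered 16235, 15870 and 5934, and a larger number gives a smaller percentage at the same place. The share of all chromosome 8 regions passing on this scale was not computed, so no result about Sox1 was read from these counts.

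Sox3 had the start peak with the most even rank across the lists. It lies on the minus strand at chrX:60891366-60893430. Its start peak ranked 17865 (SOX2-ON), 18801 (SOX2-OFF) and 16711 (CEpiLC), or 13.8%, 14.3% and 12.8% of the lists, with fold enrichments of 2.69, 2.27 and 2.33. The 3 values lay within a ratio of 1.12. Of regions of like rank, 40.5% ranked better in CEpiLC than in SOX2-OFF by at least as much. Within the X chromosome the Sox3 start peak stood at 28.4%, 36.2% and 36%, so that SOX2-ON was then best. The lists held 1741, 1426 and 1042 peaks on this chromosome. Widths were 2768, 2712 and 2419 bp. The region covers coding and untranslated sequence of Sox3 and an exon of the antisense gene Gm14662. Coding start peaks on the X chromosome ranked lower than coding start peaks as a whole, with medians of 11959, 11552 and 13612 against 8244, 8213 and 8698.

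Beyond its start Sox3 had no region shared between lists. SOX2-ON alone held an intergenic peak 18.6 kb upstream, rank 43082, 362 bp wide and with a fold enrichment of 2. Of SOX2-ON regions of like rank, 26.1% were missing from SOX2-OFF, 37.3% from CEpiLC and 22.3% from both, so its absence from the other lists was not unusual. SOX2-OFF alone held a peak 4.9 kb upstream, over an exon of Gm14662, at rank 103134.

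Sox14 was the only member whose start ranked best in SOX2-OFF. It lies on the minus strand at chr9:99874106-99876170. The start peak had rank 18711 (SOX2-ON), 12116 (SOX2-OFF) and 16052 (CEpiLC), or 14.4%, 9.21% and 12.3%, with fold enrichments of 2.21, 2.33 and 2.06. The relative rank was 1.56-fold better in SOX2-OFF than in SOX2-ON, a ratio reached by 14.4% of regions of like rank, and it was below the 2-fold limit. Widths were 1380, 1953 and 2149 bp, with both edges nearer to the start in SOX2-ON. The merged region covers coding and untranslated sequence of Sox14 and no other annotated gene. The start peaks of Sox14 and Sox21 were narrowest in SOX2-ON, where Sox14 had its poorest and Sox21 its best rank.

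**Figure D4:**
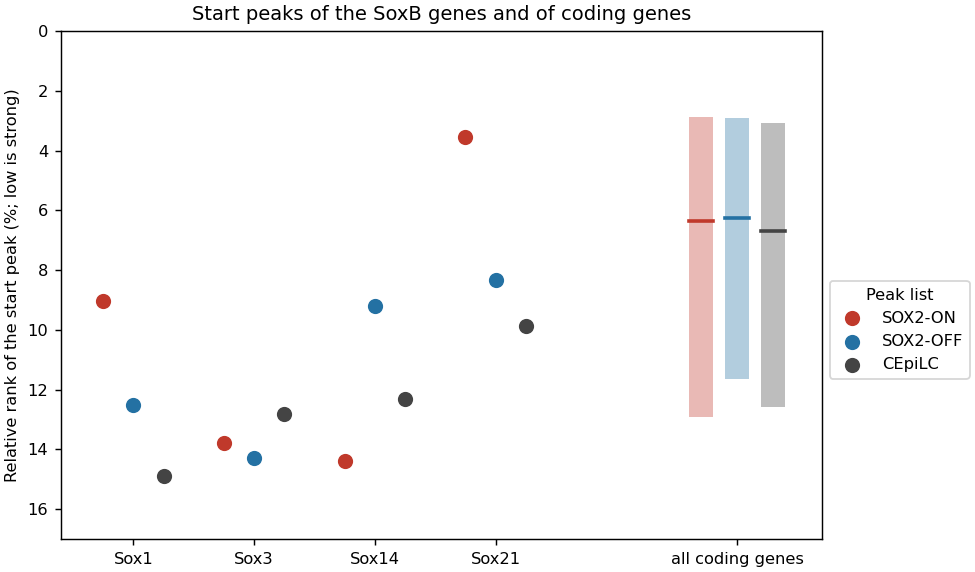
Relative rank of the start peak of each gene (%, strong at the top) in SOX2-ON (red), SOX2-OFF (blue) and CEpiLC (grey), beside the start peaks of all coding genes, where the bar spans the quartiles and the line is the median. Sox21 in SOX2-ON, at 3.55%, was the only point above the coding median.

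A wide region 5.3 kb downstream of the Sox14 start (chr9:99868604-99873216), intergenic, was found in all 3 lists. It was called as 2 peaks in SOX2-ON and as 1 peak of 4087 bp in SOX2-OFF and of 4053 bp in CEpiLC, with best ranks of 22875, 30514 and 25642. The 2 SOX2-ON peaks, of 1891 and 1846 bp, ranked 22875 and 79598. The centre of the CEpiLC peak held the SOX word ACAATG on both strands, and an OCT match in the same 200 bp. The centre of the SOX2-OFF peak held the OCT match but no SOX letters. Neither SOX2-ON peak nor the merged region held SOX or OCT letters in its centre. A region 29.2 kb downstream was found in all lists at ranks 37919, 32813 and 51467, and a peak of SOX2-OFF alone lay 27.6 kb downstream, over an exon of the lincRNA Gm47757, at rank 83603.

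The start peaks of the 4 genes were wide for their lists, and most ranked in the poorer part of coding start peaks. All were at least 2.22 times the median width of their list, and between 85.6% and 99.2% of the peaks of a list were narrower. Width was compared with all peaks of a list and not with other coding start peaks, so it was not read as a trait of these genes. Coding genes had a start peak in 70.7%, 71.5% and 72.1% of 21938 cases, at median ranks of 8244, 8213 and 8698. The 12 start peaks of the SoxB genes ranked behind these medians with the exception of Sox21 in SOX2-ON, and for the other 11 between 62.5% and 80.7% of coding start peaks ranked better. Among 14752 coding genes with a start peak in all 3 lists, 3.18% ranked at least 2-fold better in SOX2-ON than in SOX2-OFF and 12.4% better than in CEpiLC, and Sox21 was the member in either set. In the other Sox family list, all 15 genes had a start peak in every list. None of them passed 2-fold between SOX2-ON and SOX2-OFF in either direction, and Sox17 alone did so in any pair, ranking 59398 in SOX2-ON and 22355 in CEpiLC. Sox2 itself, the gene that was ablated, had start peaks at ranks 9717, 11791 and 12565. As Sox2 has a single exon and the transgene carries its cDNA, reads of the transgene can align there, so this peak checks neither the ablation nor the doxycycline response.

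The coding genes with start peaks most like those of each member were found by the distance between 3 log2 relative ranks, 1 per list. For Sox21 these were Src, Man2a2 and Vav2, at distances from 0.186 to 0.198. Src, a tyrosine kinase, ranked 5028, 9968 and 12960. Nearest to Sox1 were Plp2, Ier2 and Mthfs (0.067 to 0.0922), to Sox3 Gabrq, Synpo2 and Car8 (0.0616 to 0.0761) and to Sox14 Ttc30b, E2f4 and Smim3 (0.0442 to 0.0878). Sox21 had no neighbour as close as those of the other members.

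GC and CpG content differed among the classes of region. The 14 regions in all lists had a median GC content of 60.2% and a CpG ratio of 0.564 in their central 200 bp, against 52.5% and 0.288 for all such regions in the genome. The 7 regions in SOX2-ON alone had medians of 46.5% and 0.24, near the 47% and 0.161 of all regions of that class. SOX letters were present in the centre of 9 of 37 regions, against 25.8% of all regions. By class, 5 of the 7 regions in SOX2-ON alone held them, where 36% of all regions in SOX2-ON alone did, and 1 of the 14 regions in all lists did, where 21.3% did. The 5 regions lie 16.6 kb upstream and 41.9 kb downstream of Sox21, 18.6 kb upstream of Sox3 and 16 kb upstream and 14 kb downstream of Sox1. As these classes held only 7 and 14 regions, no link between class and SOX letters was read from the counts. TCF/LEF, T-box and CDX/HOX letters were each present in 1 of 37 region centres (3.34%, 3.37% and 7.52% of all regions), and OCT, GATA and FOXH1 letters in 0 (2.54%, 9.73% and 0.775%). The centre of a merged region can differ from the centre of a peak within it.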

How the data were processed

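ATAC-seq peak lists of 3 samples, 1 per group, were analysed. The authors ran the nf-core/atacseq pipeline, per their methods: adapter trimming (Trim Galore), alignment by BWA against mm10, filtering, removal of mitochondrial reads, then broad peak calls by MACS2 for each sample. The deposited fold enrichment is a ratio of pileup to local background, the deposited −log10 p and −log10 q come from the caller, and the deposited score (a multiple of −log10 q) was not used. Lists ended at a −log10 q of 1. Read totals were not used here, so depth per library is unknown. Broad calling joins neighbouring sites, which makes edges and widths approximate.

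Peaks sharing at least 1 base were merged into regions. Regions were classed by the lists holding a peak, and the best peak per list was ranked by −log10 p. Shares carry exact Clopper-Pearson 95% intervals, covering counting error only. Python 3.11.15, pandas 2.3.3, numpy 2.4.6, scipy 1.17.1 and pysam 0.24.0 were used, and ranking and merging were tested on simulated data. Named were all members, their start regions, the 3 best-ranked regions of each, other Sox genes by counts and the 3 genes most alike in start rank. Other regions named were picked after their values were seen. Members, lists and motifs were chosen with earlier results of these data known. Alternatives were windows of 20 kb, −log10 q of at least 2 or 5, omission of Sox1, 50% coverage of a region, and ranks by fold enrichment or within a chromosome.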

Additional observations from a re-analysis of the deposited data

How the results depend on the processing

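No paired analysis was possible because a group consisted of 1 sample, so no replicate could be left out. Of 77 values recomputed, 59 stayed within their limits (1.5 times for counts, the exact interval for shares). With windows of 20 kb the peaks fell to 17 in SOX2-ON and 13 in SOX2-OFF. With −log10 q of at least 5 they fell to 16, 15 and 12 in SOX2-ON, SOX2-OFF and CEpiLC, and without Sox1 to 12, 10 and 8. The share of regions in all 3 lists rose to 56% at −log10 q of at least 2 and 70.6% at 5. The share in SOX2-ON and SOX2-OFF fell to 8% at 2 and to 0% without Sox1. The share in SOX2-OFF and CEpiLC fell to 0% at 5, and that in CEpiLC alone to 0% at 2, at 5 and without Sox1. A list was also counted only where its peaks covered 50% of a region. Of 37 regions, 12 were then in all 3 lists, 4 in SOX2-ON and SOX2-OFF and 2 in SOX2-OFF and CEpiLC. Another 10 were in SOX2-ON alone, 6 in SOX2-OFF alone and 3 in CEpiLC alone. At −log10 q of at least 5, 4 of 12 regions ranked 2-fold better in SOX2-ON than in CEpiLC, and 1 of 12 in SOX2-OFF than in CEpiLC. At Sox21 only the start and the region 6.0 kb downstream reached this limit in both SOX2-ON and CEpiLC. Some of these calls therefore lay at other members. Shares over all regions were not computed at these −log10 q limits or at 50% coverage, so the shifts were not read as particular to the members. With ranks within the chromosome, 42.9% of regions ranked 2-fold better in SOX2-ON than in CEpiLC and 40% in SOX2-OFF than in CEpiLC. The added regions were all at Sox1, on a chromosome where the TetON lists held more peaks than CEpiLC. The same shares over all regions were not computed on this scale. Ranking by fold enrichment left 1 of the 2 calls at Sox21 (6.0 kb downstream) and added 1 at Sox1, 50.6 kb downstream, better in CEpiLC than in SOX2-ON at a ratio of 2.34. With 1 library per group, a difference between lists cannot be told apart from one between libraries.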
